A study of Homo sapiens with 4 samples.

Results

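The BCL2 family decides whether a cell keeps or breaches its mitochondrial outer membrane, and 10 of its genes were followed here in NK-92, a line of human natural killer (NK) cells. The 10 were taken by gene symbol as a fixed list: the survival genes BCL2, BCL2L1 (BCL-XL), MCL1 and BCL2A1 (BFL-1), the BH3-only genes BCL2L11 (BIM), BID, BBC3 (PUMA) and PMAIP1 (NOXA), and the effector genes BAX and BAK1. All 10 were found among the 61860 gene identifiers of the count table, and all 10 passed the filter on low counts that left 17492 genes for testing. The edited line, ΔOGT-ISS, is NK-92 lacking, after CRISPR-Cas9 deletion, the intronic splicing silencer of OGT, the gene of the enzyme that attaches O-GlcNAc to proteins. It was compared with wild-type NK-92 (WT), and both lines grew in medium with human interleukin 2 (IL-2). Total RNA was depleted of ribosomal RNA and sequenced in 4 libraries, 1 for each line with IL-2 dated 24 hours (24 h) and 1 with IL-2 dated 48 hours (48 h) before extraction. IL-2 appears in the titles of the 24 h libraries alone, although the treatment labels list it for all 4, so the time comparison may also be one of added against no added IL-2. The treatment labels are followed here. The question of the design is how the edited line differs from WT, and the times allow a second comparison.

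In healthy cells the survival proteins bind and restrain the effectors BAX and BAK. BH3-only proteins answer stress or lost cytokine signals by occupying the survival proteins or by activating the effectors, which then open pores and release cytochrome c. NK cells depend on IL-2 family cytokines for survival, and MCL1 and BCL2 are the survival members best known from them, while PMAIP1 chiefly antagonises MCL1.

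By GENCODE 29 on GRCh38, BCL2 (ENSG00000171791, chr18:63123346-63320128) and PMAIP1 (ENSG00000141682, chr18:59899948-59904306) share chromosome 18, and BAX (ENSG00000087088, chr19:48954815-48961798) and BBC3 (ENSG00000105327, chr19:47220822-47232766) share chromosome 19. The remaining survival genes are BCL2L1 (ENSG00000171552, chr20:31664452-31723989), MCL1 (ENSG00000143384, chr1:150574551-150579738) and BCL2A1 (ENSG00000140379, chr15:79960889-79971446). The others are BCL2L11 (ENSG00000153094, chr2:111119378-111168447), BID (ENSG00000015475, chr22:17734138-17774770) and BAK1 (ENSG00000030110, chr6:33572547-33580293).

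The libraries held 28576566 counts (ΔOGT-ISS, 24 h), 11305599 (ΔOGT-ISS, 48 h), 24809269 (WT, 24 h) and 10889986 (WT, 48 h). Whether the 2 libraries of a line came from separate cultures, and how many clones the edited line holds, is not given in the labels. With 1 library for each line and time, P-values rest on the departure from additive line and time effects. That departure mixes library-to-library spread, possibly technical, with any interaction of line and time. In bulk RNA, fewer cells of a kind and less RNA per cell cannot be told apart. OGT itself was at 71.7 and 74.1 FPKM (fragments per kilobase of transcript, scaled to library size) in ΔOGT-ISS at 24 h and 48 h, against 82.0 and 79.8 FPKM in WT. Of 11 NK cell markers none was at 0 in all libraries. The same held for the T cell, B cell and myeloid lists, so this does not set the NK list apart. NKG7, the highest of the 11, was at 1107 and 856 FPKM in ΔOGT-ISS at 24 h and 48 h, against 1812 and 1021 FPKM in WT. The lowest were KLRD1, at 4.76 to 6.32 FPKM over the libraries, and CD7. CD7 was at 9.03 and 0.483 FPKM in ΔOGT-ISS at 24 h and 48 h, against 7.88 and 0.501 FPKM in WT. Among markers of other cells, CD3E, TRBC2 and TRAC of the T cell list, PAX5 of the B cell list and S100A9 and S100A8 of the myeloid list were expressed. CSF1R (0.935 to 2.41 FPKM), CD79A (up to 1.61) and CD3D (up to 0.786) were low, while CD4, MS4A1, CD14 and LYZ stayed below 0.2 FPKM in every library.

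Stretches upstream of the transcription start are given for 5 members, BCL2L1, BAX and BAK1 because they rose together at 24 h, PMAIP1 because it fell, and BCL2L11 because its lines did not overlap. The sequences are RefSeq, build GRCh38.p14, 5′ to 3′ on the gene's strand, from 250 bases before the RefSeq start up to the first base that GENCODE 29 annotates as exon of the gene. The BCL2L11 stretch lies inside the GENCODE span of its gene, downstream of the gene's first annotated base, where no exon of it is annotated. Capitals mark the GC box GGGCGG, the CCAAT box, the E-box CACGTG, the forkhead motif GTAAACA and the TATA motif TATAAA, each on either strand.
BCL2L1, chr20:31723990-31724213, minus strand: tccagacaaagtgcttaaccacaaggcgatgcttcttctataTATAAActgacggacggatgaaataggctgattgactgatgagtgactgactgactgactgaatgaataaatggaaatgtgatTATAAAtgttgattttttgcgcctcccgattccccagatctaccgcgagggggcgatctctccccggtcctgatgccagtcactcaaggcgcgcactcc
BAX, chr19:48954625-48954814, plus strand: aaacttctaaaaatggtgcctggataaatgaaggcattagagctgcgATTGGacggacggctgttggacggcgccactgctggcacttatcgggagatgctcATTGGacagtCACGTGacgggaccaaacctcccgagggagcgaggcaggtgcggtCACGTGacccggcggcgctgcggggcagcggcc
BAK1, chr6:33580294-33580526, minus strand: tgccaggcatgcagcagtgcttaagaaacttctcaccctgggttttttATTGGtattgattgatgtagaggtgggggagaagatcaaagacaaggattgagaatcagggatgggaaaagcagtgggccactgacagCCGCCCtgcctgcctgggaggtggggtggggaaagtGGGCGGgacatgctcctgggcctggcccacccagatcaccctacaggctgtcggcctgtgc
PMAIP1, chr18:59899746-59899947, plus strand: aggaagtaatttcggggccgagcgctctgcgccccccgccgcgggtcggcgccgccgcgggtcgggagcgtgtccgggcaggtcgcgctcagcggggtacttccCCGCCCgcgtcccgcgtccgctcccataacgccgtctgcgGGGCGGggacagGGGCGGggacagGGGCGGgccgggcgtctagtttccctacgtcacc
BCL2L11, chr2:111120664-111120913, plus strand: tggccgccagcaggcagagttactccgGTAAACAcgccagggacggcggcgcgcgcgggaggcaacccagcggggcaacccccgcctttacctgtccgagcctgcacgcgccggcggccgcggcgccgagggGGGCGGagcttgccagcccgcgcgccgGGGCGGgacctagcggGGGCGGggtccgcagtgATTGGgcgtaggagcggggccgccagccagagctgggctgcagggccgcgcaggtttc
In the whole window of 250 bases, PMAIP1 held 4 GC boxes and BCL2L11 held 3, while BAX held 4 E-boxes, of which 2 lie in the printed stretch. BCL2L1 held 2 TATA motifs and no GC box. Of 35116 promoters of this length, 42.6% held a GC box, 6.34% an E-box, 32.0% a CCAAT box, 10.7% the TATA motif and 2.98% the forkhead motif. The STAT-type motif TTCNNNGAA, in 6.57% of all promoters, was found in 1 of the 9 member windows, that of BCL2A1, and the ATF4-type motif TGATGNAA, in 3.14%, also there alone. The half-site TGACG of the motif TGACGTCA, in 21.2% of all promoters, was found in 4 of the 9. BCL2L1 and BAX, which rose at 24 h, and PMAIP1, which fell, were among them. It is not capitalised in the stretches. MCL1 has no entry among these promoters. These matches describe letters and not bound sites. The windows of BAX, BAK1 and BCL2L1, which rose together, had GC contents of 62.8%, 58.0% and 50%, and those of PMAIP1, BBC3 and BCL2A1, which fell, had 72.8%, 49.2% and 38.8%.

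Levels were compared between genes only as deposited FPKM, which rest on 1 transcript length per gene and so depend on that length. MCL1, a short-lived survival protein, had the highest level of the 10 in every library, at 61.0 and 103 FPKM in ΔOGT-ISS at 24 h and 48 h, against 67.3 and 97.2 FPKM in WT. BCL2 stood at 49.8 and 43.7 FPKM in ΔOGT-ISS at 24 h and 48 h, against 44.1 and 48.4 FPKM in WT, the narrowest range among the survival genes. Together MCL1 and BCL2 made up 72.1% and 83.9% of the summed survival FPKM in ΔOGT-ISS at 24 h and 48 h, against 79.0% and 89.2% in WT. BCL2L1 made up 27.8% and 13.4% in ΔOGT-ISS, against 20.6% and 7.77% in WT. BCL2A1, an inducible survival gene, was the lowest member in both 24 h libraries.

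Below MCL1 the order changed with the time. At 24 h BAX came second in both lines (53.3 FPKM in ΔOGT-ISS and 58.0 in WT), followed by BCL2. At 48 h PMAIP1 came second in both lines (89.0 FPKM in ΔOGT-ISS and 51.8 in WT), and BCL2 and BID followed. BCL2, at 48.4 FPKM in WT, lay close to PMAIP1 there. At 24 h the ranges of BID, PMAIP1 and BAK1 overlapped between 18.4 and 31.4 FPKM, so these neighbours were not separated beyond the spread between the lines. BCL2L11 and BBC3 stayed low, at 4.49 to 7.07 FPKM and 0.918 to 4.22 FPKM over the 4 libraries. The plot of FPKM by library shows these levels.

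**Figure D1:**
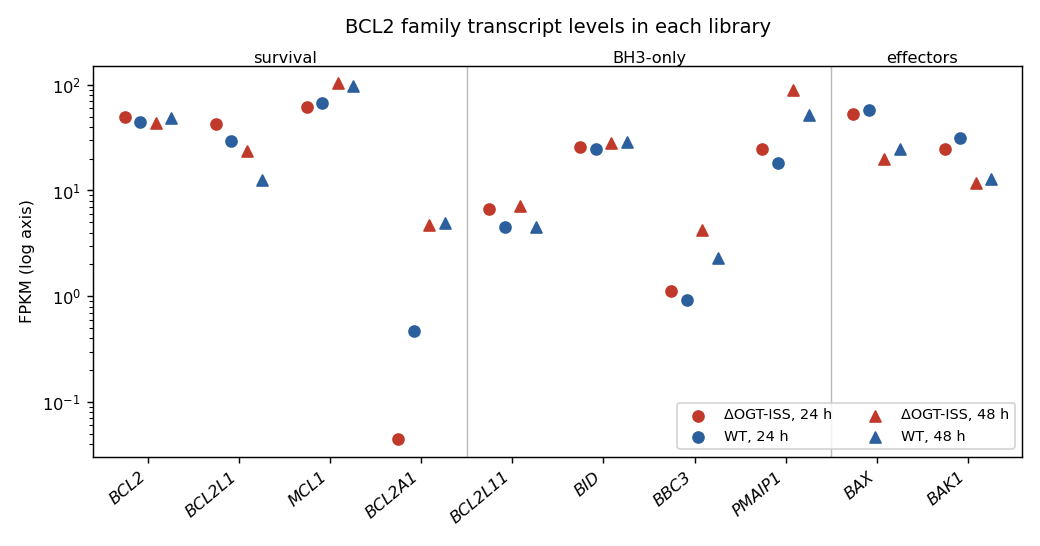
Deposited FPKM of each of the 10 genes (log axis) in the 4 libraries, ΔOGT-ISS in red and WT in blue, circles for IL-2 at 24 h and triangles at 48 h. MCL1 is highest in every library, PMAIP1 and BCL2A1 are higher at 48 h, and BAX, BAK1 and BCL2L1 are higher at 24 h.

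Between the lines, BCL2L1, BCL2L11, PMAIP1 and BBC3 had higher values in ΔOGT-ISS than in WT at both times, by 1.46 to 1.59-fold in the fit over both times. BAX and BAK1 had slightly lower values at both times, and BCL2, MCL1 and BID had no steady direction. None of the 10 passed the test (edgeR quasi-likelihood test, Benjamini-Hochberg adjusted over all 17492 genes), where 0.463% of all tested genes did (0.149% higher and 0.314% lower), and 3 of the 10 had an unadjusted p below 0.05, as had 9.08% of all tested genes. DESeq2 likewise called 0 of the 10, with 2 below 0.05 unadjusted, where 6.30% of all tested genes were. The median log2 line difference of the 10 was -0.03, against 0.02 over all tested genes. The additive model of line and IL-2 time left 1 residual degree of freedom, and only 1 edited line was compared, so the edit and other differences between the lines cannot be told apart.

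BCL2L1 encodes BCL-XL, which restrains BAX, BAK and BH3-only proteins. It was counted at 108 and 59.6 CPM (counts scaled to library size with TMM factors) in ΔOGT-ISS at 24 h and 48 h, against 75.1 and 33.5 CPM in WT. ΔOGT-ISS was the higher line at each time, but the 48 h ΔOGT-ISS library lay below the 24 h WT library, so the lines overlapped. At 24 h ΔOGT-ISS had 1.44 times the WT value (95% counting interval 1.36 to 1.52), and at 48 h 1.78 times (1.56 to 2.03). The fitted log2 line difference was 0.67 (SE 0.17, edgeR adjusted p = 0.179).

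BCL2L1 lies on chromosome 20 in a stretch where many genes differed the same way. The nearest 20 tested protein-coding genes on each side were taken, and are called the 40 nearest genes. Of these 40, 37 had higher values in ΔOGT-ISS, with a median log2 line difference of 0.56 and quartiles of 0.30 and 0.85. The median was 0.82 over the 20 on the side of higher coordinates and 0.34 over the 20 on the other side. The next such gene, TPX2, stood at 0.79 and HM13 at 0.63, and 17 of the 40 lay above BCL2L1. With the median of the neighbours taken out of the same fit, the BCL2L1 difference was 0.11 (SE 0.17, edgeR adjusted p = 0.973). Copy number was not measured here, and the part of the position in the difference was not tested. The antisense gene ABALON overlaps BCL2L1, with 26 and 23 counts in ΔOGT-ISS at 24 h and 48 h and 18 and 3 in WT, and so does AL117381.1, with 80 and 28 counts in ΔOGT-ISS and 52 and 25 in WT. The strand setting of the counting is not given in the sources used here, so reads in the overlaps could belong to either gene.

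BCL2A1 encodes the inducible survival protein BFL-1 and lies on chromosome 15. It had 1 and 42 counts in ΔOGT-ISS at 24 h and 48 h, against 9 and 42 counts in WT. The lines had equal counts at 48 h and both were low at 24 h. At 24 h ΔOGT-ISS had 0.0943 of the WT value (0.00215 to 0.681), and at 48 h 0.926 (0.589 to 1.46). The fitted log2 line difference was -1.004 (SE 0.84, edgeR adjusted p = 0.870). Of the 40 genes nearest to BCL2A1, 37 had lower values in ΔOGT-ISS, with a median of -0.52. With that median taken out, BCL2A1 stood at -0.49 (SE 0.84, edgeR adjusted p = 0.974). The summed FPKM of the 7 listed myeloid marker genes had the same order over the libraries. The sum was 71.9 and 1070 FPKM in ΔOGT-ISS at 24 h and 48 h, against 531 and 1393 FPKM in WT. Nearly all of it was S100A9, with S100A8 at 1.89 to 70.04 FPKM and CSF1R, in another order, at 0.935 to 2.41 FPKM over the 4 libraries. CD14, LYZ, MPO and FCN1 were at 0.220 FPKM or below in every library. The part of these markers in the BCL2A1 values was not tested.

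The line differences of MCL1 and BCL2 were small and did not pass. MCL1 was counted at 236 and 401 CPM in ΔOGT-ISS at 24 h and 48 h, against 267 and 394 CPM in WT, with a log2 line difference of -0.07 (SE 0.16, edgeR adjusted p = 0.964). The lines overlapped at 48 h within counting error, with a ratio of 1.02 (0.976 to 1.06), and the 24 h ratio was 0.886 (0.857 to 0.917). BCL2 was counted at 336 and 297 CPM in ΔOGT-ISS at 24 h and 48 h, against 305 and 341 CPM in WT. ΔOGT-ISS was the higher line at 24 h and the lower one at 48 h, and the log2 line difference was -0.03 (SE 0.17, edgeR adjusted p = 0.986).

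Among the BH3-only genes, BCL2L11 encodes BIM, which binds all survival proteins and is known to rise when lymphocytes lose cytokines. It was counted at 33.6 and 35.5 CPM in ΔOGT-ISS at 24 h and 48 h, against 23.0 and 23.6 CPM in WT. Both ΔOGT-ISS libraries lay above both WT libraries, and no other member had lines without overlap. The share of all tested genes without overlap was not counted, so this order alone does not set BCL2L11 apart. The 24 h ratio was 1.46 (1.32 to 1.63), close to the 48 h ratio of 1.51 (1.29 to 1.77). The fitted log2 line difference was 0.57 (SE 0.19, edgeR adjusted p = 0.342), and 4 of the 40 nearest genes lay above it. The long noncoding gene MIR4435-2HG overlaps BCL2L11 on the opposite strand and had more counts (3205 and 1627 in ΔOGT-ISS at 24 h and 48 h, 2889 and 1270 in WT). How reads in the overlap were assigned is not given in the sources used here, so the BCL2L11 counts are uncertain.

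PMAIP1 encodes NOXA, which binds MCL1 and leads to its breakdown, and is induced by p53 and by ATF4-driven stress. It was counted at 46.0 and 167 CPM in ΔOGT-ISS at 24 h and 48 h, against 35.0 and 101 CPM in WT. ΔOGT-ISS was the higher line at each time. The 24 h ratio was 1.31 (1.20 to 1.43) and the 48 h ratio was 1.65 (1.53 to 1.78), with a fitted log2 line difference of 0.56 (SE 0.17, edgeR adjusted p = 0.285). The genes around PMAIP1 on chromosome 18 had a median of 0.08. Per length, PMAIP1 stood at 0.404 and 0.865 of the MCL1 level in ΔOGT-ISS at 24 h and 48 h, against 0.273 and 0.533 in WT.

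BBC3 encodes PUMA, another p53 target that binds all survival proteins. It had 59 and 88 counts in ΔOGT-ISS at 24 h and 48 h, against 42 and 46 counts in WT. The 48 h ΔOGT-ISS library was the highest of the 4. The 24 h ratio of 1.19 (0.790 to 1.82) was within counting error of 1, and the 48 h ratio of 1.77 (1.23 to 2.59) was not. The fitted log2 line difference was 0.54 (SE 0.44, edgeR adjusted p = 0.862). BID links death receptors to mitochondria once caspase-8 has cut it. Its log2 line difference was -0.02 (SE 0.16, edgeR adjusted p = 0.993), with ratios of 1.04 (0.963 to 1.12) and 0.936 (0.840 to 1.04) at 24 h and 48 h. It showed no line difference beyond counting error at either time.

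The effector genes had lower values in ΔOGT-ISS, not all of them beyond counting error. BAX was counted at 41.6 and 15.5 CPM in ΔOGT-ISS at 24 h and 48 h, against 46.3 and 20.3 CPM in WT, with a log2 line difference of -0.26 (SE 0.19, edgeR adjusted p = 0.830). BAK1 was counted at 52.2 and 25.1 CPM in ΔOGT-ISS, against 68.3 and 28.9 CPM in WT, with a log2 line difference of -0.30 (SE 0.17, edgeR adjusted p = 0.722). Both genes were lower in ΔOGT-ISS at each time, and neither passed the test. The 48 h BAK1 difference was within counting error, as ΔOGT-ISS had 0.869 of the WT value (0.737 to 1.02). Beyond counting error were BAK1 at 24 h, with 0.764 of the WT value (0.712 to 0.819), and BAX. For BAX the 24 h pair gave 0.899 (0.828 to 0.975) and the 48 h pair 0.767 (0.625 to 0.940). Processed pseudogenes of BAK1 were counted separately at 29 reads or fewer per library, and how reads shared with BAK1 were assigned is not given. Summed over both effectors, FPKM was 77.8 and 31.5 in ΔOGT-ISS at 24 h and 48 h, against 89.4 and 37.8 in WT. Summed over the 4 BH3-only genes it was 58.4 and 128 in ΔOGT-ISS, against 48.2 and 87.2 in WT. Of this sum PMAIP1 made up 24.7 and 89.0 FPKM in ΔOGT-ISS at 24 h and 48 h, against 18.4 and 51.8 in WT. BID made up 25.9 and 27.9 FPKM in ΔOGT-ISS, against 24.5 and 28.6 in WT. Over the 4 survival genes the sum was 153 and 175 in ΔOGT-ISS, against 141 and 163 in WT.

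**Figure D2:**
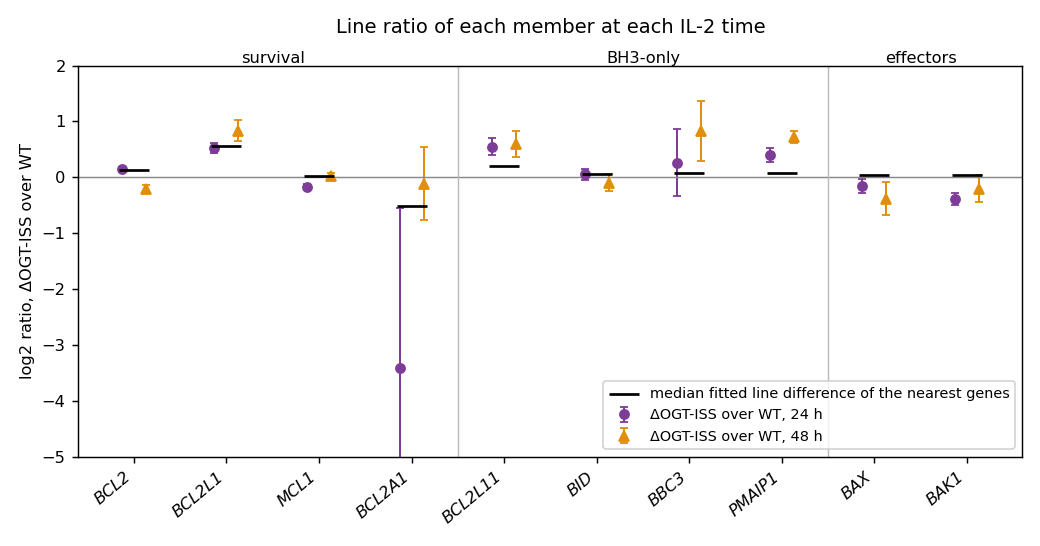
Log2 ratio of ΔOGT-ISS over WT in TMM-normalized CPM for each gene, circles for 24 h and triangles for 48 h, with 95% intervals that cover counting error only. Black bars are the median fitted line difference of the nearest tested protein-coding genes, at 0.56 for BCL2L1 and -0.52 for BCL2A1, and the 24 h interval of BCL2A1 runs below the axis.

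**Figure D3:**
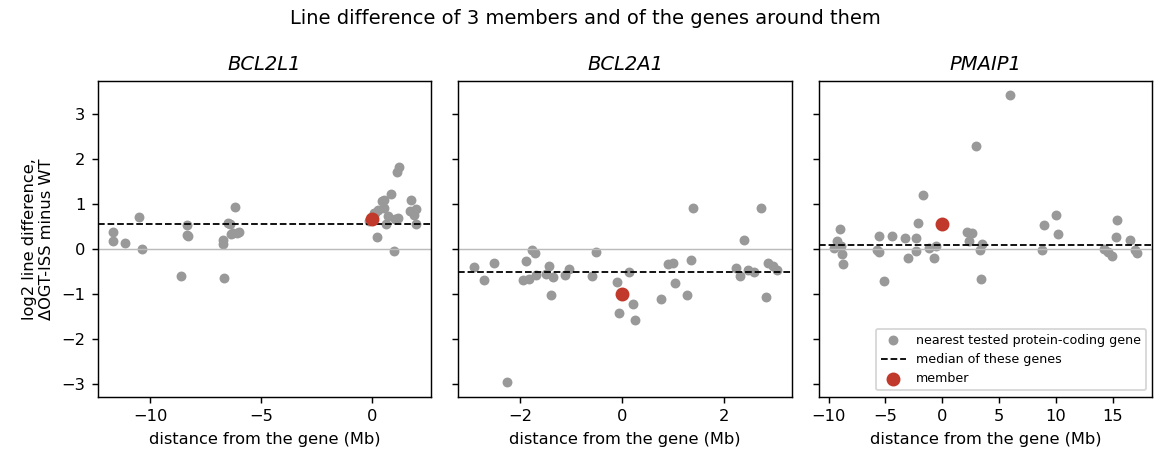
Fitted log2 line difference (ΔOGT-ISS minus WT) of BCL2L1, BCL2A1 and PMAIP1 (red) and of the nearest 20 tested protein-coding genes on each side (grey) by distance in megabases, with their median as a dashed line. BCL2L1 (0.67) lies near the median of its neighbours (0.56), BCL2A1 (-1.004) below its own (-0.52), and PMAIP1 (0.56) above its own (0.08).

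The 24 h libraries were then compared with the 48 h libraries in the same model. BAX, BAK1 and BCL2L1 rose at 24 h, by 2.47, 2.22 and 2.01-fold, while BCL2A1, PMAIP1, BBC3 and MCL1 fell to 0.0440, 0.309, 0.320 and 0.632 of the 48 h level in the fit. BCL2, BID and BCL2L11 did not pass. The times did not overlap in CPM for any member that passed, nor for BID. BID had 55.4 and 53.4 CPM at 24 h (ΔOGT-ISS and WT), against 59.8 and 63.9 CPM at 48 h. The share of all tested genes without overlap between the times was not counted, so this order alone does not set a member apart. Thus 7 of the 10 passed the edgeR test (3 higher and 4 lower), where 25.9% of all tested genes did (15.0% higher and 10.9% lower). The median log2 time difference of the 10 was -0.12, against 0.07 over all tested genes. The times also differ in composition: across 16884 genes with a known GC content, the log2 time difference rose with the GC content of the transcript (Spearman's rho 0.472, a description across genes that share the same 4 libraries). With offsets for GC content and transcript length in the same test, 4 of the 10 passed, BAX higher and BCL2A1, PMAIP1 and BBC3 lower, where 19.5% of all tested genes did (1753 genes higher, and 1655 or 9.46% lower).

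PMAIP1 was counted at 46.0 and 35.0 CPM at 24 h (ΔOGT-ISS and WT), against 167 and 101 CPM at 48 h. Both 24 h libraries lay below both 48 h libraries. The log2 time difference was -1.69 (SE 0.17, edgeR adjusted p = 8.73e-04), and with the GC and length offsets -1.34 (SE 0.23, edgeR adjusted p = 2.28e-07). The adjusted p fell although the difference shrank and its SE grew. P-values of fits with and without the offsets should therefore not be compared, for any member. The 24 h to 48 h ratio was 0.276 (0.257 to 0.296) in ΔOGT-ISS and 0.347 (0.317 to 0.380) in WT. PMAIP1 transcripts are AT-rich, at 37.2% GC, and GC content and length alone gave a log2 difference of -0.36.

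BBC3 had 59 and 42 counts at 24 h (ΔOGT-ISS and WT), against 88 and 46 counts at 48 h in the shallower libraries. In CPM this is 2.03 and 1.70 at 24 h, against 7.69 and 4.34 at 48 h, with no overlap between the times. The log2 time difference was -1.64 (SE 0.44, edgeR adjusted p = 0.0303), while DESeq2 gave -1.68 with adjusted p = 0.0572. BBC3 is GC-rich, at 69.7%, where other genes were higher at 24 h. With the offsets its difference was larger, at -3.33 (SE 0.50, edgeR adjusted p = 1.82e-09), and 39 of its 40 nearest genes lay above it in the time difference.

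BCL2A1 had 1 and 9 counts at 24 h (ΔOGT-ISS and WT), against 42 and 42 counts at 48 h. Both 24 h libraries were near the limit of detection although they were the deeper ones. The ratio was 0.00937 (2.32e-04 to 0.0551) in ΔOGT-ISS and 0.0920 (0.0394 to 0.192) in WT. The fitted log2 difference was -4.51 (SE 0.90, edgeR adjusted p = 0.00991) and -4.09 (SE 0.81, edgeR adjusted p = 1.27e-05) with the offsets. The size of a fitted change at so few counts depends on the prior count.

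MCL1 was counted at 236 and 267 CPM at 24 h (ΔOGT-ISS and WT), against 401 and 394 CPM at 48 h. The times did not overlap, and the log2 difference was -0.66 (SE 0.16, edgeR adjusted p = 0.0198). The ratio was 0.589 (0.568 to 0.612) in ΔOGT-ISS and 0.677 (0.651 to 0.704) in WT. With the offsets MCL1 stood at -0.47 (SE 0.24, edgeR adjusted p = 0.172) and did not pass. It did not pass either with no filter on low counts (-0.45, edgeR adjusted p = 0.223).

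BAX was counted at 41.6 and 46.3 CPM at 24 h (ΔOGT-ISS and WT), against 15.5 and 20.3 CPM at 48 h, and BAK1 at 52.2 and 68.3 CPM at 24 h, against 25.1 and 28.9 CPM at 48 h. For both effectors the 24 h libraries lay above the 48 h libraries in each line. The log2 difference of BAX was 1.31 (SE 0.19, edgeR adjusted p = 0.00285), and with the offsets 0.69 (SE 0.24, edgeR adjusted p = 0.0286). That of BAK1 was 1.151 (SE 0.17, edgeR adjusted p = 0.00323), and with the offsets 0.45 (SE 0.23, edgeR adjusted p = 0.166). Both transcripts are GC-rich (58.9% and 58.8%), and GC content and length alone gave 0.62 and 0.71. Around BAX on chromosome 19 and BAK1 on chromosome 6 the 40 nearest genes had median time differences of 1.02 and 0.66.

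BCL2L1 was counted at 108 and 75.1 CPM at 24 h (ΔOGT-ISS and WT), against 59.6 and 33.5 CPM at 48 h. Both 24 h libraries lay above both 48 h libraries. The log2 time difference was 1.01 (SE 0.17, edgeR adjusted p = 0.00491), but 0.44 (SE 0.23, edgeR adjusted p = 0.158) with the offsets. The remaining members did not pass. BCL2L11 had a log2 time difference of -0.06 (SE 0.18, edgeR adjusted p = 0.842), BID of -0.18 (SE 0.16, edgeR adjusted p = 0.446) and BCL2 of 0.01 (SE 0.17, edgeR adjusted p = 0.977).

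**Figure D4:**
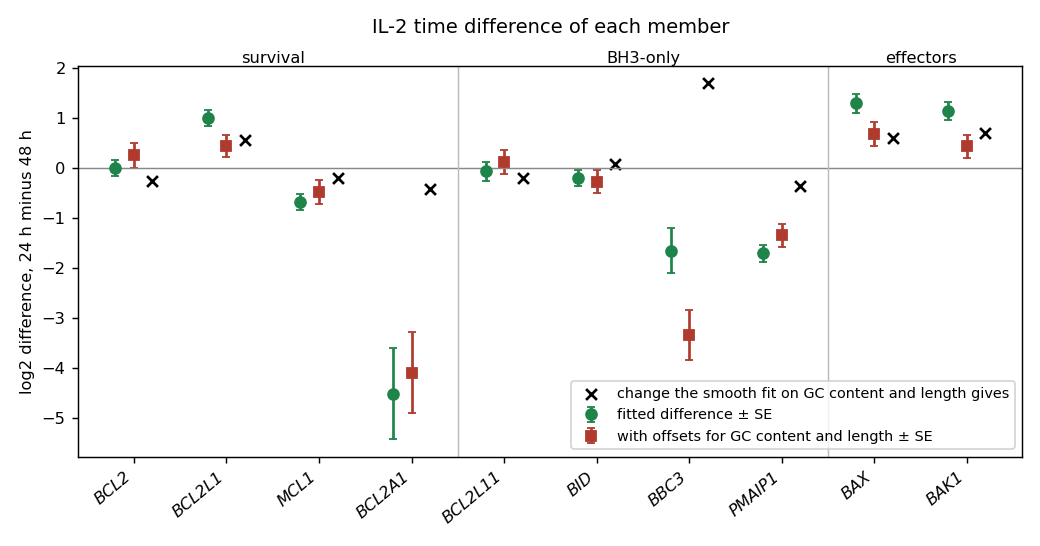
Fitted log2 time difference (24 h minus 48 h) of each member with its SE, without (circles) and with (squares) offsets for GC content and transcript length, and the change that GC content and length alone give (crosses). In the fit with the offsets BAX was past the test as higher (0.69) and PMAIP1, BCL2A1 and BBC3 as lower (-1.34, -4.09 and -3.33). P-values with and without the offsets should not be compared, so these calls do not show which differences outlast the offsets.

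Single libraries and the model bore on these time calls. Without the line term and with all 4 libraries, BCL2L1 (edgeR adjusted p = 0.0902) and BBC3 (0.0528) no longer passed, which left 5 calls. Fits that leave out 1 library also lack the line term. In these, PMAIP1 passed in all 4. BCL2A1 passed in all but the fit without the 24 h ΔOGT-ISS library (-3.28, edgeR adjusted p = 0.0676), and BAX and BAK1 in all but the fit without the 24 h WT library (1.29 and 1.02, edgeR adjusted p = 0.0587 and 0.0839). BCL2L1 passed only without the 48 h ΔOGT-ISS library (edgeR adjusted p 0.0318 there and 0.0628 to 0.261 otherwise). BBC3 passed only without the 48 h WT library (0.0250, and 0.0794 to 0.249 otherwise), and MCL1 in none (0.0631 to 0.304).

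The other genes of the pathway were taken from 7 lists. Between the lines, 0 of their 84 tested genes passed the edgeR test over all genes, where 0.463% of all tested genes did. With the GC and length offsets 5 passed, where 3.20% of all tested genes did: BNIP2 (-0.83), TNF (-0.81) and IL2RA (-1.13) were lower in ΔOGT-ISS, and DDIT3 (0.94) and the stress transcription factor ATF4 (0.79), named after its values were seen, were higher. The IL2RA estimate hardly changed, from -1.12 (SE 0.22, edgeR adjusted p = 0.101) to -1.13 (SE 0.23, edgeR adjusted p = 1.03e-04) with the offsets. Over all genes with a known GC content, it was nearly unrelated to the line difference (Spearman's rho -0.0305). The adjusted p of IL2RA thus fell at nearly the same difference and SE. P-values with and without the offsets should therefore not be compared for these genes either, and why these calls changed was not tested. The values that follow are without these offsets. BOK, an effector relative, stood at a log2 line difference of 1.26 (SE 1.20, edgeR adjusted p = 0.894) and BNIP2, whose product binds BCL2, at -0.79 (SE 0.19, edgeR adjusted p = 0.160), with neighbours at a median of -0.62. Cytochrome c (CYCS) stood at -0.65 (SE 0.21), the caspase inhibitors NAIP and XIAP at -0.56 (SE 0.67) and -0.25 (SE 0.15), and the death ligands TNF and TNFSF10 (TRAIL) at -0.81 (SE 0.19) and 0.56 (SE 0.34). Of the regulators, IL2RA, the IL-2 receptor alpha chain, stood at -1.12 (SE 0.22, edgeR adjusted p = 0.101), in a stretch of chromosome 10 with neighbours at a median of -0.51.

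DDIT3 and SESN2, like PMAIP1, had their highest level in the 48 h ΔOGT-ISS library. DDIT3, the transcription factor CHOP, had 9.15 and 45.7 FPKM in ΔOGT-ISS at 24 h and 48 h, against 7.82 and 13.3 FPKM in WT, and a log2 line difference of 0.96 (SE 0.36, edgeR adjusted p = 0.447). SESN2, a stress-induced gene listed with the p53 targets, had 3.63 and 31.4 FPKM in ΔOGT-ISS, against 4.51 and 8.86 FPKM in WT, and a log2 line difference of 0.73 (SE 0.43, edgeR adjusted p = 0.744). AEN, a p53-induced nuclease, stood at -0.53 (SE 0.17), with neighbours at a median of -0.54. Among genes for turnover of MCL1 and BH3-only proteins, TRIM17 and USP13 stood at 0.74 (SE 0.61) and 0.49 (SE 0.20). None of these 5 passed the test without the offsets.

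Between the times, 5 of 11 other BCL2 family genes passed (2 higher and 3 lower at 24 h), where 25.9% of all tested genes did. BNIP3L, a mitophagy receptor, fell by 2.73 on the log2 scale (SE 0.27, edgeR adjusted p = 8.18e-04) and BNIP2 by 0.71 (SE 0.19). BAD, a BH3-only gene under kinase control, rose by 1.31 (SE 0.28, edgeR adjusted p = 0.0120), and BCL2L12 by 1.26 (SE 0.25). With the GC and length offsets 1 of the 11 passed, BNIP3L at -2.40, where 19.5% of all tested genes did, and BAD stood at 0.03.

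Of 15 genes of the apoptosome, caspases and mitochondrial release, 3 were higher and 3 lower at 24 h. Of all tested genes, 15.0% were higher and 10.9% lower. The mitochondrial nuclease ENDOG rose by 2.97 (SE 0.63) and the protease HTRA2 by 0.71 (SE 0.22), while CYCS fell by 0.88 (SE 0.22) and the channel VDAC2, which binds BAK, by 0.72 (SE 0.17). None of these 4 passed with the offsets. Of the 15, 2 did, where 19.5% of all tested genes did. Of 7 caspase inhibitors 1 passed: BIRC3, an NF-kB target like BCL2A1, fell to 6.17 and 6.51 FPKM at 24 h (ΔOGT-ISS and WT), against 51.3 and 43.9 FPKM at 48 h (log2 -2.93, SE 0.17, edgeR adjusted p = 1.61e-04), and stood at -2.45 with the offsets. NAIP stood at -0.89 (SE 0.67) and did not pass.

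Of 10 death receptor genes 6 were higher and 1 lower, where 15.0% and 10.9% of all tested genes were. FAS, a death receptor, fell to 6.54 and 10.1 FPKM at 24 h (ΔOGT-ISS and WT), against 42.1 and 33.8 FPKM at 48 h (log2 -2.23, SE 0.24, edgeR adjusted p = 9.87e-04). TNFRSF10A, a TRAIL receptor, rose by 2.75 (SE 0.39), the adaptor FADD by 1.94 (SE 0.27) and TNF by 1.89 (SE 0.20). With the offsets 4 were higher and 1 lower, where 19.5% of all tested genes passed. The 4 genes named here were among those that passed.

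Of 15 p53 targets 2 were higher and 4 lower at 24 h, where 15.0% and 10.9% of all tested genes were. SESN2, SESN1 and RRM2B fell by 2.08 (SE 0.44), 0.83 (SE 0.18) and 0.70 (SE 0.16), and the repair gene DDB2 rose by 0.73 (SE 0.22). With the offsets 1 was higher and 1 lower, where 19.5% of all tested genes passed. SESN2 (-2.84) was the only 1 of the 4 named to pass. Of 8 genes for MCL1 and BH3-only turnover 3 passed, where 25.9% of all tested genes did. USP13 and RNF5 rose by 0.92 (SE 0.20) and 0.90 (SE 0.19) and MARCHF5, a mitochondrial ubiquitin ligase, fell by 0.67 (SE 0.18). With the offsets 2 of the 8 passed, USP13 and RNF5, where 19.5% of all tested genes did. MARCHF5 did not (-0.34).

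Of 18 regulators of member transcription 6 were higher and 6 lower at 24 h, where 15.0% and 10.9% of all tested genes were. FOXO1, which drives BCL2L11 when cytokines are lacking, fell by 1.66 (SE 0.50) at 0.202 to 0.796 FPKM. DDIT3 fell by 1.59 (SE 0.36, edgeR adjusted p = 0.0164) and NFKB1, an NF-kB subunit, by 0.97 (SE 0.15). IL2RB, the IL-2 receptor beta chain, rose by 0.98 (SE 0.16), at 196 and 197 FPKM at 24 h (ΔOGT-ISS and WT), against 97.5 and 98.9 FPKM at 48 h. With the offsets 6 of the 18 were lower and 0 higher, where 9.46% of all tested genes were lower. FOXO1, DDIT3 and NFKB1 were among those 6, and IL2RB stood at 0.37.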

How the data were processed

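Total RNA of 4 NK-92 libraries was depleted of ribosomal RNA and sequenced. The raw read counts per Ensembl gene and the FPKM values were deposited by the authors. HISAT2 2.2.0, SAMtools 1.15.1, featureCounts 2.0.1 and hg38 are named in the submitters' processing notes, while settings for strand, multi-mapping and molecular identifiers are not given there. The deposited FPKM equal the count over the listed transcript length and the library total, so they carry no correction for composition. Whole counts went into edgeR 4.0.16 (R 4.3.3): TMM factors, filterByExpr with a minimum count of 10, and the quasi-likelihood test with terms for line and IL-2 time, Benjamini-Hochberg adjusted over 17492 genes at 0.05. SE is the log2 difference over the square root of F. Fold changes are ΔOGT-ISS over WT and 24 h over 48 h. An interaction of line and time leaves no residual degree of freedom and was not tested. Ratios of single libraries carry exact 95% conditional binomial intervals, which cover counting error only, since PCR reads are not independent molecules. Library totals spanned 10889986 to 28576566 counts, and the 48 h libraries were the shallower ones. The regional median is that of up to 40 tested protein-coding genes, the nearest 20 on each side where present. GC content and length offsets came from a smooth fit over the 16884 tested genes with both values (96.5%). Alternatives used DESeq2 1.42.0, limma 3.58.1 on log2(FPKM + 0.1) and log2(FPKM + 1), other scalings, no filter, thinned counts and fits without 1 library. The scripts were tested on simulated data. All 10 members are described, and each pathway list gives, in each comparison, its genes past the test up to the 4 largest by log2 change, or the largest changes until 2 are named, except that 1 gene is not reported here. The members and lists were chosen with earlier results of these data known. Samples were grouped by the labelled genetic modification, and time was taken from the labelled IL-2 treatment, although the sample titles name IL-2 only for the 24 h libraries.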

Additional observations from a re-analysis of the deposited data

Results flagged for a closer look

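BCL2 differed between the lines in opposite directions at the times. The ratio of ΔOGT-ISS to WT was 1.103 at 24 h and 0.869 at 48 h in TMM-normalized CPM. On the log2 scale BCL2 stood at 0.14 and -0.20. The 40 genes nearest to it had median log2 line ratios of 0.27 at 24 h and -0.03 at 48 h. The ratio of 24 h to 48 h was 1.13 in ΔOGT-ISS and 0.893 in WT. Each is 1 library against 1 library, and the difference between these effects was not tested.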

How the results depend on the processing

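Between the lines, 0 members passed under every alternative run, and 81 genes passed over the whole table. That count was 154 with DESeq2 size factors, 546 with no filter, 303 by DESeq2, 214 with thinned counts, 560 with GC and length offsets and 39 with the regional median removed. It was 0 by limma on log2(FPKM + 0.1) and on log2(FPKM + 1) (750 and 1066 genes at an unadjusted p under 0.05) and 0 with the time term left out (242 unadjusted). Leaving out 1 library gave 0 to 16. Between the times, 4535 genes passed, 0 by both limma fits (4634 and 5891 unadjusted) and 1092 to 3655 with 1 library left out, the lowest without the 24 h WT library (1092) and the 24 h ΔOGT-ISS library (1307). Of the members, 7 passed, 6 with no filter (MCL1 lost, -0.446, adjusted p = 0.223), 6 by DESeq2, 5 with the line term left out, 0 by both limma fits, 4 with the GC and length offsets and 2 to 5 with 1 library left out (2 without the 24 h WT library and 3 without the 24 h ΔOGT-ISS library). With no filter the median time difference of all genes was 0.23, against 0.07. The cause of these shifts was not tested.

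Log2 line differences changed sign for BID (0.00521 with upper-quartile factors, 0.0231 with library size alone, 0.0221 and 0.0213 by limma) and BCL2 (0.0143 with library size alone, 0.0137 and 0.0135 by limma, 0.00382 with thinned counts). Fits without 1 library also lack the other term. Such fits leave the other factor unbalanced, so they mix part of the time difference into the line difference, and the reverse. Without the 48 h ΔOGT-ISS library they gave BCL2 0.0537, BAX 0.32, BAK1 0.10, BBC3 -0.56 and PMAIP1 -0.57. Without the 48 h WT library they gave BID 0.0608, BCL2 0.0112, MCL1 0.20 and BCL2A1 2.203. Without the 24 h ΔOGT-ISS library they gave MCL1 0.24 and BCL2A1 0.77, and without the 24 h WT library BAX 0.54 and BAK1 0.46. Log2 time differences changed sign for BCL2 (-0.0296 with DESeq2 size factors and by DESeq2, -0.0732 with upper-quartile factors, -0.0746 with thinned counts, -0.0919 without the 48 h ΔOGT-ISS library), BCL2L11 (0.16 with no filter, 0.14 with offsets, 0.26 without the 48 h ΔOGT-ISS and 0.25 without the 24 h WT library) and BID (0.0320 with no filter). None of these sign changes involved a value past the test. The time term of the model already matches the lines by time. No paired analysis by replicate number was possible because the labels carry none. BCL2A1 and BBC3 had 1 to 88 counts per library, which widens their intervals.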
